A study of Mus musculus with 10 samples.

Results

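Granzymes and related effectors of cytotoxic lymphocytes were examined in the terminal ileum of male C57BL/6JJmsSlc mice with and without repeated mild social defeat. The 9 genes were chosen by symbol: the granzymes Gzma, Gzmb and Gzmk, the pore-forming protein Prf1, the granule membrane protein Nkg7, the death ligand Fasl, and the surface receptors Klrd1, Klrk1 and Cd160. All 9 were on the array, through 14 probe sets that carried 1 gene symbol each, out of 18193 genes on the array. For each gene the brightest probe set, by its mean over the 10 arrays, was used. The dimmest 40 percent of probe sets were not tested, which put a floor at 4.15 on the log2 scale. Of the 9 genes, 6 (Gzma, Gzmb, Prf1, Nkg7, Klrd1 and Cd160) were among the 13666 genes tested. Klrk1, Fasl and Gzmk lay below the floor and are described from a fit without a floor.

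The control group held 5 unstressed mice and the stressed group 5 mice, all 7 weeks of age and habituated in single cages, with 1 array per mouse. Stressed mice met an aggressive older male of the ICR strain over 10 days, for 5 min on the first day and 0.5 min less on each following day, down to 0.5 min. The diet of the stressed and control mice was AIN-93G, and food was withheld for 3 h ahead of sampling the terminal ileum. The labels do not say how control mice were housed during the 10 days, nor which part of the tissue wall, lymphoid follicles included, went into the RNA. The comparison is of stressed with control mice.

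Cytotoxic T cells and natural killer (NK) cells kill target cells by releasing granules at the contact site. Perforin opens pores in the target membrane, and granzymes, which are serine proteases, pass into the target and start cell death. A separate route uses Fas ligand, which engages the death receptor Fas. In the small intestine the largest store of such cells lies within the epithelium as intraepithelial lymphocytes (IEL), many of which carry CD8 and express granzymes A and B in the resting gut. Their activity is set by receptors shared with NK cells, among them CD94 (Klrd1), NKG2D (Klrk1) and CD160.

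The means of Gzma and Gzmb were lower in stressed mice, those of Klrd1, Cd160 and Nkg7 were lower by smaller amounts, and no difference passed the test. Gzmk and the brighter Prf1 probe set lay near 0. Gzma differed by -1.77 ± 0.72 (SE) and Gzmb by -1.43 ± 0.52 (SE) on the log2 scale with all 10 arrays, 3.40-fold and 2.70-fold lower means. Without control mouse 1, whose array stood apart from the rest, the differences were -2.26 ± 0.61 (SE) and -1.86 ± 0.39 (SE). With or without control mouse 1, none of the 6 tested genes passed limma (Benjamini-Hochberg adjusted p under 0.05 over all genes). Their adjusted p-values were 0.446 to 0.861 with 10 arrays and 0.0547 to 0.613 without that mouse, the smallest being that of Gzmb.

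As background for these counts, limma called 0% of all genes with 10 arrays and 0.798% without control mouse 1. At an unadjusted p under 0.05, 5 of the 6 tested members were lower with 10 arrays, against 3.96% of all genes tested, and 5 without control mouse 1, against 6.56%. The direction was below 0 for 5 of the 6 in both comparisons, against 49.1% and 43.8% of all genes. The median difference over the 6 was -0.61 with 10 arrays and -0.56 without control mouse 1, beside 0.00 and 0.03 over all genes tested. No member had groups that were free of overlap in either comparison, while 1.12% and 2.72% of all genes were lower in every stressed mouse than in every control. The 6 genes were chosen with earlier results of these arrays known, so their counts describe them and are no independent evidence.

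The array of control mouse 1 correlated with the others at 0.918 to 0.947 across genes, against 0.975 to 0.995 among the other 9. Its mean over 8 ileal enterocyte genes was 7.26, against 10.21 to 10.84 in the other mice. Its mean over Car1 and Aqp8, genes of the large intestine, was 10.83, and that of stressed mouse 4 was 10.29, against 4.59 to 5.93 in the other 8 mice. The other 4 genes of that list, the posterior Hox genes Hoxb13, Hoxd13, Hoxd12 and Hoxa13, lay below the floor. Results are therefore given with and without control mouse 1.

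**Figure D1:**
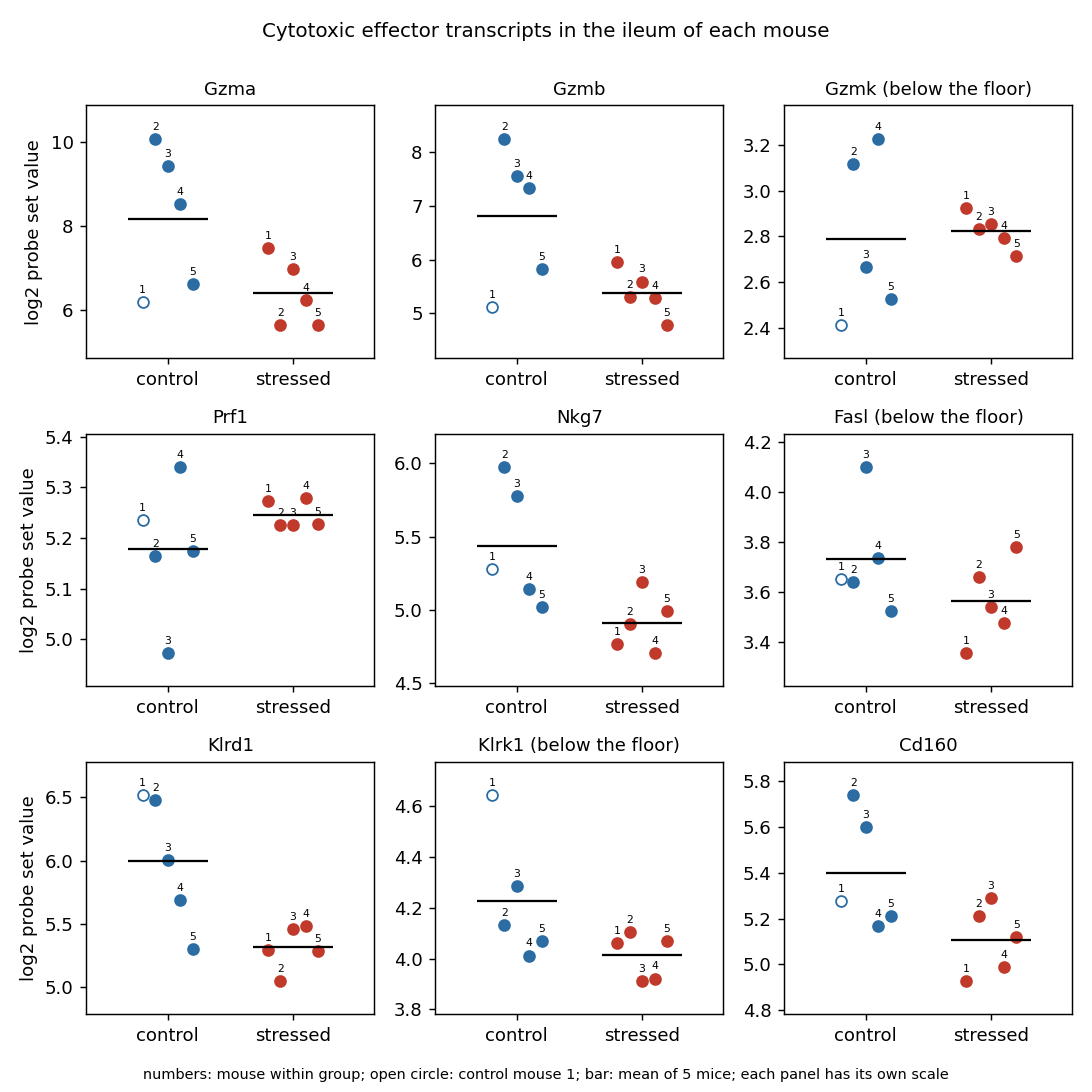
Log2 probe set value of each of the 9 genes (vertical axis, a separate scale per panel) in 5 control (blue) and 5 stressed (red) mice; digits are mouse numbers, the open circle is control mouse 1 and the bar is the group mean. For Gzma and Gzmb, control mice 2, 3 and 4 lie above every stressed mouse, while control mice 1 and 5 lie within the stressed range. The brighter Prf1 probe set, drawn here, shows no such shift.

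Granzyme A is a tryptase-like protease of cytotoxic T and NK cell granules. In control mice 1 to 5 the log2 value of Gzma was 6.19, 10.08, 9.44, 8.53 and 6.63. In stressed mice 1 to 5 it was 7.48, 5.66, 6.98, 6.24 and 5.66. Control mice 2, 3 and 4 were above all 5 stressed mice, and control mice 1 and 5 lay inside the stressed range. The group means were 8.17 ± 1.71 (SD, n = 5) and 6.41 ± 0.81 (SD, n = 5), so the spread among controls was as large as the difference. Its limma adjusted p was 0.596. Without control mouse 1 the control mean was 8.67 ± 1.50 (SD, n = 4) and the limma adjusted p 0.0972. Leaving out a further mouse beside control mouse 1 gave limma adjusted p-values from 0.0217 to 0.222. The lowest came without control mouse 5, which lay in the stressed range (-2.94 ± 0.45, SE), and the highest without control mouse 3 (-2.01 ± 0.67, SE). Without control mouse 2 the difference was -1.79 and the limma adjusted p 0.157, and trended robust moderation gave 0.171. When any 1 of the 10 mice was left out, the difference ranged from -2.26 to -1.29.

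Granzyme B cleaves after aspartate and activates caspases in the target cell. Gzmb was at 5.11, 8.25, 7.55, 7.34 and 5.82 in control mice 1 to 5, and at 5.95, 5.30, 5.59, 5.28 and 4.79 in stressed mice 1 to 5. The order of the controls was the same as for Gzma, with mice 2, 3 and 4 above all stressed mice and control mouse 1 below 4 of the 5. Group means were 6.82 ± 1.30 (SD, n = 5) and 5.38 ± 0.43 (SD, n = 5). The 4 controls other than mouse 1 averaged 7.24 ± 1.02 (SD, n = 4), 4 of 5 stressed mice were below each of them, and the limma adjusted p was 0.0547, against 0.521 with 10 arrays. With control mouse 5 also left out, the difference was -2.33 ± 0.25 (SE) and the limma adjusted p was 0.0141. Gzma and Gzmb both passed in that setting, and the count of members called was 2. Of all 13666 genes, limma called 108 there, of which 78 fell and 30 rose. That setting removed the remaining control that lay inside the stressed range for both granzymes. Leaving out any other further mouse gave Gzmb a limma adjusted p of 0.0720 to 0.139. In bulk tissue, fewer cytotoxic lymphocytes and less granzyme RNA per cell cannot be told apart.

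The 250 bases upstream of the start sites of Gzma and Gzmb are shown as held by RefSeq on build GRCm38.p6, with matches to 4 motifs in capitals. A link between these motifs and the levels of the genes was not tested. The motifs were TGTGGT (Runx), GGTGTG (T-box), TGANTCA (AP-1) and GGAAGT (Ets), searched on both strands, and all belong to factor families of T cells. The Gzma window is chr13:113100982-113101231 and the Gzmb window chr14:56262335-56262584, both on the minus strand and both written 5′ to 3′.
Gzma: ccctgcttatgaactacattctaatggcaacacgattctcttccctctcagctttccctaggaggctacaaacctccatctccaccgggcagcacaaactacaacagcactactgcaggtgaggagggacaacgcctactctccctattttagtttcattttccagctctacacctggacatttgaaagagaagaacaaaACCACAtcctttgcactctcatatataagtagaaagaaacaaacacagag
Gzmb: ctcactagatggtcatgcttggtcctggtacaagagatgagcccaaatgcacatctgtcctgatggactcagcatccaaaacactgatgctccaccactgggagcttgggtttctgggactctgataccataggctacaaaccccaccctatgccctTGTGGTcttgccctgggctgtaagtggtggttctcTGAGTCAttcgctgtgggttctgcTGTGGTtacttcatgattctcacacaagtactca
The Gzma window held 1 Runx match, on the opposite strand and 50 bases before the start site. The Gzmb window held 2 Runx matches, whose first bases lay 93 and 34 bases before the start, and 1 AP-1 match between them, at 58 bases. Neither window held a T-box or Ets match with these letters.

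Windows were found for 8 of the 9 genes, and Cd160 had 2, which gave 9 windows. The Runx letters stood in 7 of the 9 windows, against 14.0% of 32851 windows of the same length over all genes. T-box letters stood in 5 (16.3% of all windows), Ets letters in 4 (19.7%) and AP-1 letters in 1 (6.75%), that of Gzmb. In 1 of the Cd160 windows the Runx and T-box matches overlapped. The Prf1 and Nkg7 windows each held 1 Runx match and T-box or Ets matches beside it. A match describes letters and is no measured binding.

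**Figure D2:**
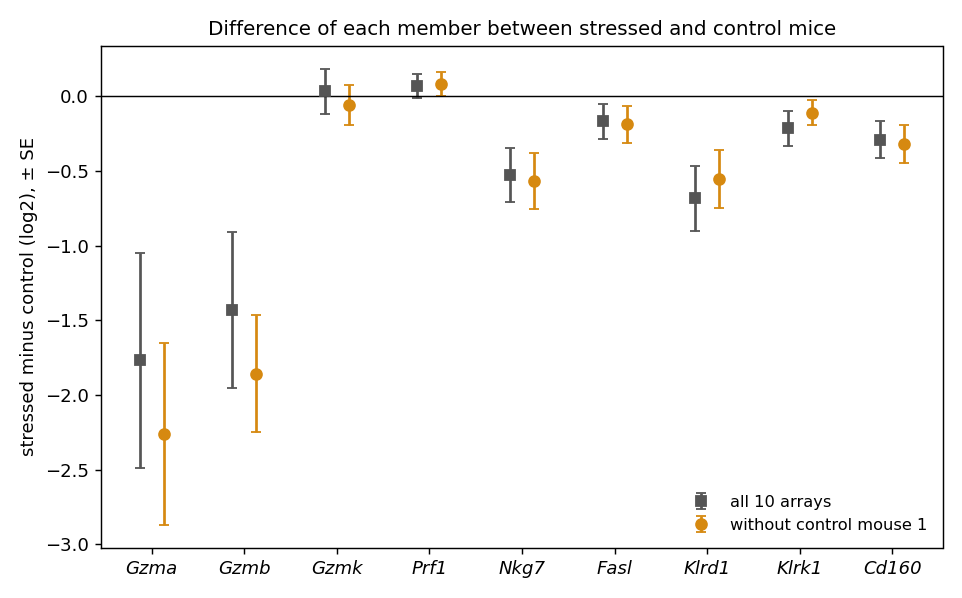
Difference between stressed and control mice on the log2 scale (vertical axis) for the 9 genes (horizontal axis); squares use all 10 arrays, circles leave out control mouse 1, and bars are ± 1 SE. Gzma and Gzmb lie farthest below 0, at -1.77 and -1.43 with 10 arrays, and Gzmk and the brighter Prf1 probe set lie near 0.

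Gzmk, a granzyme of memory-like CD8 T cells, was close to background on this array. Its values were 2.41 to 3.23 in control and 2.72 to 2.92 in stressed mice, all below the floor. The difference was 0.03 ± 0.15 (SE) with 10 arrays and -0.06 ± 0.13 (SE) without control mouse 1, so its direction changed with that mouse. Of the 7 other mouse granzymes looked up, Gzmc, Gzmd, Gzme, Gzmf, Gzmg and Gzmn were also below the floor, with means of 1.60 to 2.38. Gzmm, which prefers methionine at the cleavage site, was above it and differed by 0.00 ± 0.13 (SE). Of the granzymes, Gzma, Gzmb and Gzmm were thus the 3 with a measurable level.

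Perforin has 2 probe sets, and they did not go the same way. On the brighter one, Prf1 was at 5.24, 5.16, 4.97, 5.34 and 5.17 in control mice 1 to 5 and at 5.23 to 5.28 in the stressed mice, which lay inside the control range. Group means were 5.18 ± 0.13 (SD, n = 5) and 5.25 ± 0.03 (SD, n = 5), and the limma adjusted p was 0.861 with 10 arrays. On the dimmer probe set, with a mean of 4.18 just above the floor, the difference was -0.16 ± 0.12 (SE), with a limma adjusted p of 0.786 when all probe sets were tested. Which of them reports perforin transcript better is not known here. On the dimmer one, 4 of the 5 stressed mice were below every control, and stressed mouse 5, at 4.45, was above every control. No difference in perforin passed the test on either probe set.

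Nkg7, a granule membrane protein needed for efficient degranulation, was at 5.28, 5.98, 5.78, 5.14 and 5.02 in control mice 1 to 5. In stressed mice 1 to 5 it was at 4.77, 4.90, 5.19, 4.70 and 4.99. Of the stressed mice, 4 were below every control, and stressed mouse 3 overlapped with control mice 4 and 5. The difference of -0.53 ± 0.18 (SE) over 10 arrays had a limma adjusted p of 0.496. Leaving out control mouse 1 gave -0.57 ± 0.19 (SE) and 0.155. Nkg7 was 1.44-fold lower with 10 arrays, at a mean of 5.17 over them. The scale can understate changes near background, and whether it did so for Nkg7 was not tested.

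Fasl, the ligand of the Fas death receptor, was measured by 2 probe sets, both below the floor. The brighter one was at 3.52 to 4.10 in control and 3.35 to 3.78 in stressed mice. It differed by -0.17 ± 0.12 (SE) with 10 arrays and -0.19 ± 0.12 (SE) without control mouse 1. The overlap was wide, and a change in Fasl was not detectable at this signal.

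Klrd1 encodes CD94, which pairs with NKG2 chains to bind the non-classical MHC molecule Qa-1. Its values were 6.52, 6.48, 6.00, 5.69 and 5.30 in control mice 1 to 5, and 5.29, 5.05, 5.46, 5.48 and 5.29 in stressed mice 1 to 5. Here control mouse 1 was the highest of all mice, unlike for the granzymes, and 4 of 5 controls lay above every stressed mouse. Control mouse 5 lay among the stressed mice. Klrd1 had the smallest unadjusted p of the 6 genes with 10 arrays, 0.00901 in limma, and differed by -0.68 ± 0.22 (SE, adjusted p = 0.446). Without control mouse 1 the difference was -0.55 ± 0.19 (SE) with a limma adjusted p of 0.172. When control mouse 2 was left out as well, it was -0.35 ± 0.15 (SE).

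Cd160, a receptor of intraepithelial lymphocytes that binds the TNF receptor family member HVEM, was at 5.28, 5.74, 5.60, 5.17 and 5.21 in control mice 1 to 5. Stressed mice 1 to 5 were at 4.93, 5.21, 5.29, 4.99 and 5.12, and control mice 2 and 3 alone were above all of them. The difference was -0.29 ± 0.13 (SE) with 10 arrays and -0.32 ± 0.13 (SE) without control mouse 1, with limma adjusted p of 0.612 and 0.223. Cd160 has 4 probe sets, all with differences below 0. The next probe sets in brightness gave -0.01 ± 0.08 (SE) and -0.27 ± 0.14 (SE) with 10 arrays, and the dimmest, with a mean of 2.01, gave -0.06 ± 0.12 (SE). Probe sets of 1 gene thus spanned nearly 0 to the full difference.

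Klrk1 encodes NKG2D, which recognises stress-induced ligands on epithelial cells, and with a mean of 4.12 lay just under the floor of 4.15. Control mouse 1 was at 4.64, the other controls were at 4.01 to 4.28, and the stressed mice were at 3.91 to 4.11. The difference of -0.21 ± 0.12 (SE) with 10 arrays became -0.11 ± 0.08 (SE) without control mouse 1. Klrk1 and Klrd1 were the members for which control mouse 1 was highest, whereas it was the lowest control for Gzma, Gzmb and Gzmk.

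How closely the members varied together from mouse to mouse differed between pairs. Deviations from the group means were compared over the 9 arrays without control mouse 1, as a description. Gzma and Gzmb varied together, with Pearson r = 0.96 and Spearman rho = 0.98, and r = 0.89 without the 2 mice farthest from the median of Gzma. Nkg7 and Cd160 varied together, with r = 0.95, rho = 0.93 and r = 0.94 without the 2 mice farthest from the median of Nkg7. Between Gzma and Nkg7, r was 0.69 and rho 0.60. Without the 2 mice farthest from the median of Gzma, r was 0.25, so that relation rested on those mice. Pairs among Gzma, Gzmb, Nkg7, Klrd1 and Cd160 all had r above 0, from 0.51 to 0.96. All 5 pairs with Prf1, on its brighter probe set, had r below 0, from -0.62 to -0.07. The 15 pairs had a median of 0.66. With control mouse 1 included, that median was 0.44, while r for Gzma with Gzmb was 0.97. For Klrd1, r with Gzma then went from 0.84 to 0.27 and r with Gzmb from 0.81 to 0.13. All these values share the arrays and their normalization.

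The genes most like each member over the same 9 arrays were then read from all 13666, where the best of so many values is high by selection. For Gzma they were Ccl5 (r = 0.96), Gzmb (0.96) and Spi1 (0.95), and for Gzmb they were Ms4a6b (0.97), Gzma (0.96) and Trim12a (0.96). With control mouse 1 included, r for Ms4a6b was 0.98 but for Trim12a 0.45. For Nkg7 they were Thoc6 (0.97), Ifi47 (0.96) and Cd160 (0.95), and for Cd160 they were Thoc6 (0.98), Cops5 (0.96) and Nkg7 (0.95). Klrd1 was most like Cops6 (0.97), Igkv6-14 (0.94) and Zdhhc5 (0.93), and for Igkv6-14 r was 0.01 with control mouse 1 included. Prf1 was most like Cyb5d2, Smad5 and 4632404H12Rik (each 0.97), none of them a member. The mean of the 6 members was most like Gzma (0.97), Ccl5 (0.97) and Gzmb (0.97).

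Other genes of the cytotoxic pathway were taken from 7 lists with 67 genes, of which 33 were measured above the floor. None passed limma over all genes with 10 arrays, where 10 were lower and 1 higher at an unadjusted p under 0.05 (backgrounds 3.96% and 3.86%). Without control mouse 1, 1 of the 33 fell and 0 rose, against 0.534% of all genes that fell, and 13 were lower and 1 higher at an unadjusted p under 0.05, where 6.56% and 11.4% of all genes were. The median difference was -0.12 with 10 arrays and -0.20 without control mouse 1.

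The gene that fell was Srgn, which encodes serglycin, the proteoglycan that holds granzymes and perforin in the granule and is also made by mast cells and myeloid cells. Srgn was at 9.30, 10.22, 9.80, 9.56 and 9.65 in control mice 1 to 5 and at 8.97, 9.07, 9.15, 8.99 and 8.97 in stressed mice 1 to 5. Every stressed mouse was below every control, control mouse 1 included, as in 1.12% of all genes. Over the 9 arrays without control mouse 1, Srgn fell by 0.78 ± 0.12 (SE), and limma gave an adjusted p of 0.0245. All 10 arrays gave a difference of -0.68 ± 0.14 (SE) and 0.301. The call without control mouse 1 was lost when control mouse 3 (limma adjusted p = 0.0611), stressed mouse 1 (0.0574), stressed mouse 3 (0.0511), stressed mouse 4 (0.0694) or stressed mouse 5 (0.0592) was also left out.

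All 6 measured genes of granule cargo and protease regulators had differences below 0. Ctsw, a cathepsin-like protease of CD8 T and NK cells, differed by -0.44 ± 0.15 (SE) with 10 arrays, and Ctsc, the peptidase that activates progranzymes, by -0.12 ± 0.11 (SE). Cst7, or cystatin F, an inhibitor of such peptidases, lay below the floor and was looked at after its values were seen. Without a floor, Cst7 differed by -0.36 ± 0.13 (SE) over 10 arrays with a limma adjusted p of 0.538, and the groups overlapped, with control mouse 1 at 3.48 and the stressed mice at 3.48 to 3.67. Leaving out control mouse 1 gave -0.47 ± 0.09 (SE) and a limma adjusted p of 0.0473, in a fit that called 0.489% of 18193 genes. The machinery of granule traffic and release, which many cell types share, showed no such direction: 2 of 6 measured genes were lower. In that list Stx11, a syntaxin of granule fusion, differed by -0.25 ± 0.10 (SE) with 10 arrays. It was lower in every stressed mouse than in every control, as were 1.12% of all genes. The granule membrane protein Lamp1 differed by 0.11 ± 0.09 (SE).

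All 6 measured genes of the other NK-type receptors and adaptors were lower, 4 of them at an unadjusted p under 0.05 with 10 arrays (3.96% of all genes) and 3 without control mouse 1 (6.56%). Klrg1, a receptor of differentiated T and NK cells, differed by -0.41 ± 0.11 (SE) and Slamf7 by -0.49 ± 0.15 (SE), both with no overlap between the groups, as in 1.12% of all genes. The signalling partners Hcst (DAP10, of NKG2D) and Tyrobp (DAP12) differed by -0.22 ± 0.10 (SE) and -0.25 ± 0.11 (SE), and both are also used by myeloid cells. Of the ligand side, Tnfrsf14, which encodes HVEM, differed by 0.05 ± 0.13 (SE) and Fas by -0.27 ± 0.14 (SE). None of these passed limma over all genes with or without control mouse 1.

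Among other secreted effectors, Ccl5, a chemokine stored and released by cytotoxic lymphocytes, had the pattern of the granzymes. It was at 7.01, 9.15, 8.72, 7.67 and 6.99 in control mice 1 to 5 and at 7.26, 6.42, 6.91, 6.73 and 6.33 in stressed mice 1 to 5. Control mice 2, 3 and 4 were again above all stressed mice. Ccl5 differed by -1.18 ± 0.41 (SE) with 10 arrays and -1.40 ± 0.37 (SE) without control mouse 1, with limma adjusted p of 0.496 and 0.0940. Tnf differed by -0.33 ± 0.13 (SE) with 10 arrays, and Ifng, at a mean of 2.42 in controls, was below the floor.

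Drivers of cytotoxic lymphocytes went in both directions. Il18, an epithelial and myeloid cytokine that acts on T and NK cells, was at 8.32 in control mouse 1, 9.34 to 9.46 in the other controls and 7.70 to 9.26 in stressed mice. It differed by -0.84 ± 0.30 (SE) over 10 arrays. Leaving out control mouse 1 gave -1.06 ± 0.24 (SE) and a limma adjusted p of 0.0636. Id2, a transcriptional inhibitor that NK and other innate lymphocytes need and that epithelial cells also express, was higher in every stressed mouse than in any control. The difference was 0.48 ± 0.11 (SE) over 10 arrays with a limma adjusted p of 0.329, where 1.16% of genes were higher with no overlap. Il15, the cytokine that sustains intraepithelial lymphocytes, differed by 0.27 ± 0.29 (SE), and the lineage factors Tbx21 and Eomes were below the floor.

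**Figure D3:**
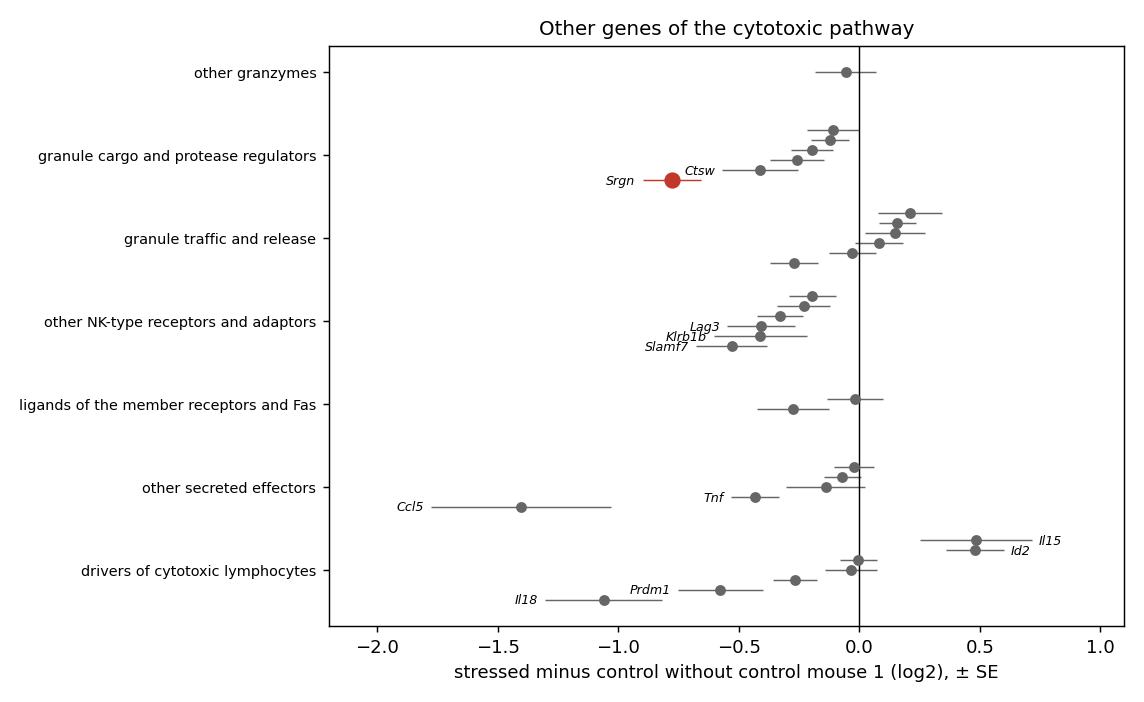
Difference between stressed and control mice without control mouse 1 on the log2 scale (horizontal axis, bars ± 1 SE) for measured genes of 7 pathway lists (rows); the large red point passed limma over all genes, and genes beyond 0.4 either way are named. Srgn, at -0.78, is the gene that passed, and Ccl5 lies farthest below 0 at -1.40 without passing.

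Markers of the cells that carry these genes were read beside them. The mean of 9 measured T cell and intraepithelial lymphocyte genes was 5.15, 6.04, 5.79, 5.53 and 5.44 in control mice 1 to 5 and 5.18 to 5.27 in stressed mice. All 9 were lower in stressed mice with 10 arrays, with a median of -0.33, and control mice 2 and 3 were the highest for this list as for the granzymes. Cd3g, which encodes CD3 gamma, differed by -0.80 ± 0.23 (SE) and Cd7, a surface protein of T and NK cells, by -0.33 ± 0.09 (SE), with limma adjusted p of 0.408 and 0.385. Itgae, the integrin chain that holds intraepithelial lymphocytes at the epithelium, differed by -0.37 ± 0.13 (SE). Cd8a, the CD8 alpha chain, differed by -0.04 ± 0.12 (SE) with 10 arrays on its brightest probe set, the only one read here. Cd8b1 was below the floor. Of the 5 NK cell genes on the array, 4 (Ncr1, Eomes, Klra8 and Klre1) were below the floor, and Itga2, which many other cells express, differed by -0.01 ± 0.11 (SE).

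Lists for other leukocytes had no gene called with 10 arrays. Mast cells of the mouse can express Gzmb and Srgn, and the mean of 6 measured mast cell genes was 5.13 to 5.93 in control and 4.65 to 4.86 in stressed mice, with control mouse 5 highest. The differences were largest for the mast cell proteases Mcpt1 (-1.49 ± 0.38, SE) and Mcpt2 (-1.58 ± 0.40, SE), with Cpa3 at -0.42 ± 0.10 (SE). Tpsb2 (-0.28), Tpsab1 (-0.16) and Kit (-0.01, and 0.25 without control mouse 1) overlapped between the groups. The B cell mean (4 genes) was 6.36 in control mouse 5, 4.33 to 5.18 in the other controls and 4.58 to 4.86 in stressed mice. The plasma cell mean (5 genes) was 7.28 in control mouse 1, 8.62 to 9.50 in the other controls and 7.92 to 8.32 in stressed mice. The macrophage and dendritic cell mean (8 genes) was 7.52 to 8.30 and 7.66 to 7.95, and the epithelial mean (5 genes) was 12.38 in control mouse 1 and 12.85 to 12.98 elsewhere. In the 9 arrays without control mouse 1, limma called Cd7 of the 9 T cell genes, Cpa3 of the 6 mast cell genes, and Jchain, Mzb1 and Pou2af1 of the 5 plasma cell genes, all of which fell, against 0.534% of all genes. No B cell or macrophage and dendritic cell gene was called, and both of those means overlapped between the groups. Control mouse 5, with granzyme values in the stressed range, thus had the highest B cell and mast cell means. The log2 ratio of 3' to 5' control probe sets, a measure of RNA integrity, was 0.45 to 0.63 in control and 0.51 to 1.13 in stressed mice, with stressed mouse 1 highest. The part of any of these in the differences of the granzymes was not tested.

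**Figure D4:**
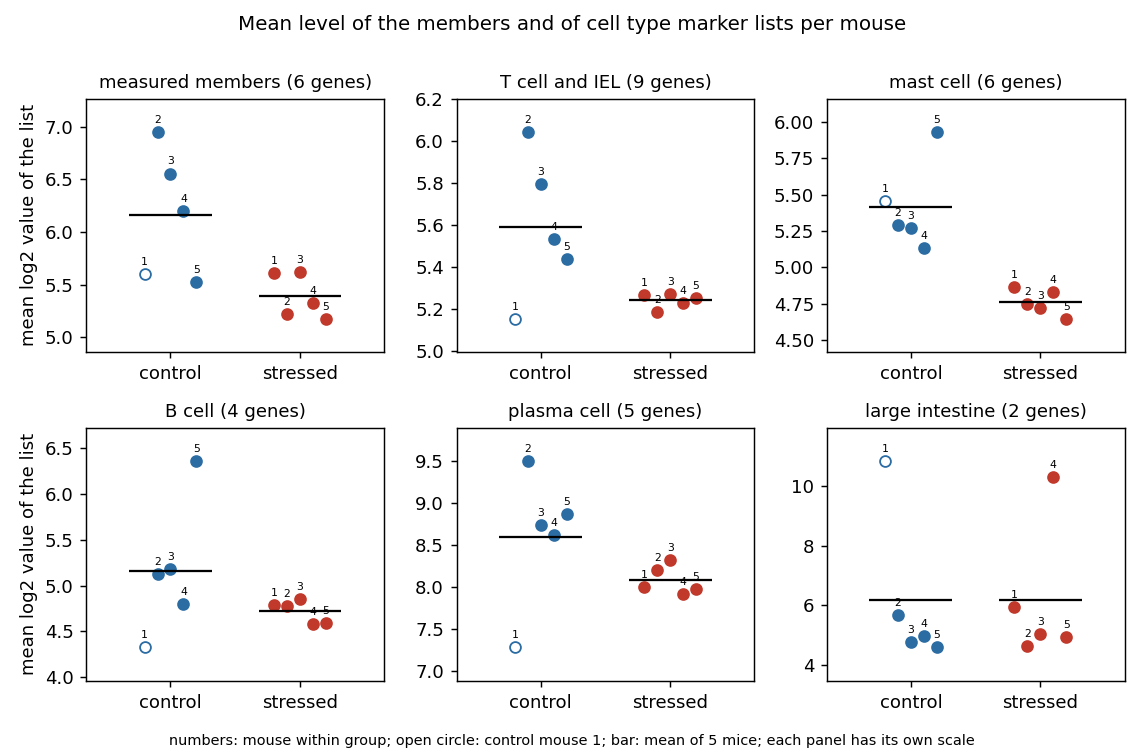
Mean log2 value per mouse (vertical axis, a separate scale per panel) of the 6 measured members and of 5 cell type marker lists in control (blue) and stressed (red) mice; digits are mouse numbers, the open circle is control mouse 1 and the bar is the group mean. The members and the T cell list are highest in control mice 2 and 3, the B cell and mast cell lists in control mouse 5, and the large intestine genes in control mouse 1 and stressed mouse 4.

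Per mouse, the mean of the 6 measured members was 5.60, 6.95, 6.56, 6.20 and 5.53 in control mice 1 to 5 and 5.62, 5.22, 5.62, 5.33 and 5.18 in stressed mice 1 to 5. The control mean was 6.17 ± 0.61 (SD, n = 5) and the stressed mean 5.39 ± 0.21 (SD, n = 5). Control mice 2, 3 and 4 were above all stressed mice, and control mice 1 and 5 were not. Without stressed mouse 4 in addition to control mouse 1, Gzma differed by -2.22 ± 0.67 (SE) and Gzmb by -1.83 ± 0.43 (SE), close to the values with that mouse, with limma adjusted p of 0.210 and 0.139.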

How the data were processed

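RNA from the terminal ileum of 10 mice was measured on 1 Affymetrix 3' array per mouse. The authors deposited log2 probe set values made with RMA, per the submitters' processing notes. The program that ran RMA is not given in the sources used here. Base 2 was taken from the range of the values, 1.22 to 14.4. RMA gives every array nearly the same distribution, which hides any change in RNA per cell. Precision is limited by how many arrays there are.

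Of 45101 probe sets, the 34945 with 1 gene symbol in the platform annotation were used, and 64 control probe sets, 932 with several symbols and 9160 with none were left out of tests. Stressed and control mice were compared across all 13666 genes in R 4.3.3 with limma 3.58.1 (lmFit, eBayes), 2-sided, with Benjamini-Hochberg adjustment over all genes tested and a threshold of 0.05. The scripts were tested on simulated data. The labels do not say whether the mice came from separate litters, or from separate cages before they were habituated in single cages. The p-values set the group difference against the spread between these mice. Members, gene lists and tests were chosen with earlier results of these data known. Named genes were the 9 members, Cd8a, Itgae, Ccl5 and, in each list, up to 2 genes of smallest p with 10 arrays, while Ctsc, Il15, Ifng, Hcst, Tyrobp, Cst7, Jchain, Mcpt1, Tpsb2, Tpsab1 and Kit were chosen after their values were seen. Alternatives were no floor, a 60 percent floor, all probe sets, array weights, trended robust moderation, the replicate number as a block and each mouse left out.

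Replicate numbers are shared by the groups, and nothing in the labels pairs the mice.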

Additional observations from a re-analysis of the deposited data

Results flagged for a closer look

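Single mice far from the rest of their group were looked for in 104 groups of 5 values, including the members, the genes named by rule and the marker list means. Genes chosen after their values were seen, Jchain among them, were not included. The gap to the nearest other mouse, over the group's range, was above Dixon's critical value of 0.71 in 13. No member was among them. Chance gives about 1 in 20 for independent groups. These groups share arrays, and list means hold genes that were also counted singly, so the 13 are not independent. Control mouse 1 gave 8 of the 13. It was low for Il18 (8.32, nearest other control 9.34), Cubn (7.18, nearest 10.15), the epithelial gene Vil1 (10.92, nearest 12.41), the ileal enterocyte mean (7.26, nearest 10.21) and the epithelial mean (12.38, nearest 12.85), and high for Car1 (14.17, nearest 7.06), Aqp8 (7.50, nearest 4.49) and the large intestine mean (10.83, nearest 5.68). Stressed mouse 4 was high for Aqp8 (7.26, nearest 4.44) and the large intestine mean (10.29, nearest 5.93) and low for the B cell gene Cd79b (4.37, nearest 4.94). Stx11 was high in control mouse 2 (4.75, nearest 4.53), and the plasma cell gene Mzb1 was high in stressed mouse 3 (7.39, nearest 6.84).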

How the results depend on the processing

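With 10 arrays the count of members called stayed at 0 under all 16 alternatives, and each of the 6 tested members kept its direction in every one where it was tested. Without control mouse 1, 0 members were called in limma except with the replicate block (1, Gzmb, adjusted p = 0.0191, over a range of 0.0141 to 0.139 for that gene's alternatives) and in fits that left out a further mouse, which gave 0 to 2. That block fit takes no information from stressed mouse 1, whose number has no control. Over all 10 arrays, deviations of same-numbered mice had correlations from -0.30 to 0.28. Control and stressed mouse 2, at 0.28, were each other's best match, as for no other number. With 10 arrays the block gave 0 calls over all genes, and 95 without control mouse 1. The median difference of the members moved to -1.43 and -1.86 under the 60 percent floor, which keeps 3 of them. The count of all genes called with 10 arrays was 41 with array weights and 0 to 109 when 1 mouse was left out (109 without control mouse 1, 2 without stressed mouse 2). The count of 109 became 45 with all probe sets, 169 with trended robust moderation, and 6 to 154 when a further mouse was left out. It was 19, 16, 58 and 108 without control mice 2, 3, 4 and 5. Without stressed mice 1, 3, 4 and 5 it was 32, 21, 6 and 14. Srgn with 10 arrays was called with array weights (adjusted p = 0.0333) in limma. The low signal of Klrk1, Fasl and Gzmk limits what can be said of them. Alternatives for Srgn were added after its value was seen.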
